A study of Mus musculus with 24 samples.

Results

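The interaction of active coping and dexamethasone is the difference between 2 responses to dexamethasone (DEX), that of mice with an active coping strategy (AS) and that of unstressed control mice, measured in the prefrontal cortex (PFC). It was computed for every one of the 14074 genes in the table from 16 of the 24 libraries of the series, as the log2 DEX response in AS minus the log2 DEX response in control, so that a positive value means a higher response in AS. The mice were male C57BL/6 animals of 10 to 12 weeks, and each of the 4 groups held 4 mice with 1 RNA-seq library each. Control mice were intact animals that had lived singly for 5 days, and AS mice had met aggressive CD1 males daily in 30 days of chronic social defeat. Both received an injection of saline or of 2 mg/kg DEX, for AS mice 24 h after the last defeat, and the PFC was taken 6 h later. AS and the passive coping strategy (PS) were assigned by clustering the behaviour of defeated mice on day 29, so these phenotypes are groups found among stressed animals and not a treatment. The other 8 libraries, from saline-treated and DEX-treated PS mice, entered only the estimate of the spread and the comparison with PS given near the end.

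DEX is a synthetic glucocorticoid that binds the glucocorticoid receptor (GR), a transcription factor that enters the nucleus with its ligand and raises or lowers the transcription of target genes. It reaches the brain poorly because transporters of the blood-brain barrier pump it out, and the endothelial cells, pericytes and smooth muscle cells of the vessels carry the receptor themselves. An interaction asks whether the same injection moved a gene differently after stress. It can come from a difference between the saline groups, between the DEX groups or both, so the 4 groups are given for each gene.

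The 16 libraries held 21121869 to 52422858 reads on genes, with 21121869 to 24753489 in the 8 control libraries and 23481722 to 52422858 in the 8 AS libraries, so depth went with phenotype. Values are normalized counts, that is, reads divided by a size factor of the library, and their precision rises with the count. Markers of cortical pyramidal neurons were high in every library, with Slc17a7, the vesicular glutamate transporter, at 43074 to 54240.1 normalized counts. The GR targets Fkbp5, Tsc22d3 and Sgk1 lay higher in each DEX library than in each saline library of the same phenotype, as the labels require. The root mean square distance from the group mean was computed on the log2 scale over genes with a mean normalized count of at least 100. In the 16 libraries it was 0.102 to 0.229. It was highest in DEX-treated AS mouse 60 (0.229), saline-treated AS mouse 44 (0.206), saline-treated control mouse 117 (0.191) and DEX-treated control mouse 101 (0.183). DEX-treated control mouse 112 (0.146) lay toward the saline-treated controls in genes such as Nefm, and saline-treated AS mouse 44 lay toward the DEX-treated AS mice in Nefh, Scn4b and Ina.

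The GR binds DNA at the hexamer AGAACA, its half-site, or at a pair of them facing each other as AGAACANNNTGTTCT. The 250 bases before the transcription start were searched for both motifs on both strands in the RefSeq promoters of GRCm38.p6, where 10032 of the genes tested had 12960 entries. Of the called genes, 15 of the 23 with a lower and 13 of the 26 with a higher interaction had an entry. The half-site was present in 1372 of the 12960 windows (10.6%), in 4 of 19 windows of genes with a called lower interaction (21.1%) and in 4 of 17 of genes with a called higher one (23.5%). By gene, 1273 of 10032 held it, 3 of 15 and 4 of 13, with both matching windows of Stra6 counted once, which is a count of matching letters and not of binding. The paired motif was found in 1 of all windows and in 0 of those of the called genes. The 4 windows below hold the half-site before a RefSeq start of genes that the results turn on. These are Syt2 and Scn4b with a higher and Stra6 and Hspb8 with a lower interaction. A gene can have several RefSeq starts. The windows of Syt2 and Stra6 lie inside the annotated spans of these genes, that of Scn4b overlaps the start of its span, and that of Hspb8 lies before its gene. Capitals mark the half-site or its reverse complement, and each window is written 5′ to 3′ on the strand of its gene.
Syt2, chr1:134709050-134709299 (+ strand): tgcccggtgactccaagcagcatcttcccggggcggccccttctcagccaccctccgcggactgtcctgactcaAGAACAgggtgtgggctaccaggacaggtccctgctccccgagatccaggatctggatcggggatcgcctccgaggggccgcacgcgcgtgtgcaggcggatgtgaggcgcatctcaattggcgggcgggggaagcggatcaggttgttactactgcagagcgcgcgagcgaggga
Scn4b, chr9:45138374-45138623 (+ strand): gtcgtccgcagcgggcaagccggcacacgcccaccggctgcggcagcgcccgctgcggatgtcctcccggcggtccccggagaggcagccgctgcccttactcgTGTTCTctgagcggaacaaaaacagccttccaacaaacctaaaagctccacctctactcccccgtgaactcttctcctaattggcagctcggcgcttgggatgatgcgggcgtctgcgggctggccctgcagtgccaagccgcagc
Stra6, chr9:58133825-58134074 (+ strand): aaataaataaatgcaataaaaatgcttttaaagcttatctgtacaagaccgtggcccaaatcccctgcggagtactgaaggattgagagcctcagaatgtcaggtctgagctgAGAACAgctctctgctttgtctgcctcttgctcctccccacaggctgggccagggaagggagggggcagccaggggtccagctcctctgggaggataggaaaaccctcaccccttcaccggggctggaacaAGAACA
Hspb8, chr5:116422865-116423114 (- strand): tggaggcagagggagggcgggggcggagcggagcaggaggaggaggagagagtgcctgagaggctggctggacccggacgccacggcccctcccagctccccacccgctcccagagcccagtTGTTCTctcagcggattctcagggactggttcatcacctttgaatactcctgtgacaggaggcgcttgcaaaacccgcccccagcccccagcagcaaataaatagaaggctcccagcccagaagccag

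The AS response to DEX differed from the control response in 49 of the 14074 genes (0.348%) at a Benjamini-Hochberg adjusted p under 0.1 in limma. It was lower for 23 genes (0.163% of those tested) and higher for 26 (0.185%). This split was 22 higher and 9 lower with quantile normalization and 26 higher and 51 lower with edgeR on the recovered reads. DESeq2 on those reads called 439 genes, 170 higher and 269 lower. The 23 genes with a lower response include genes of vessel walls, of the matrix around vessels, of macrophages and of antigen presentation. Of the 26 with a higher response, 15 were genes such as the neurofilament genes Nefm, Nefh and Ina and the synaptic gene Syt2, and the other 11 were 10 pseudogenes and Rps27rt, a ribosomal protein retrogene annotated as protein-coding. At an unadjusted p under 0.05, 1902 genes (13.5%) differed, with 856 higher (6.08%) and 1046 lower (7.43%). Within control mice DEX changed 913 genes (6.49%), of which 567 rose (4.03%) and 346 fell (2.46%), and within AS mice 1234 (8.77%), of which 537 rose (3.82%) and 697 fell (4.95%). With saline, 22 genes (0.156%) differed between AS and control, and after DEX 122 (0.867%), of which 107 were lower in AS (0.76%) and 15 higher (0.107%). With saline, 7 of the 22 were higher in AS (0.0497%) and 15 lower (0.107%).

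The called genes were chosen by the difference between both responses, so the signs below describe them and test nothing. Of the 23 genes with a lower interaction, 18 had fitted DEX responses of opposite sign in control and AS, some of them close to 0 in AS such as Slc2a1 (-0.02), 10 rose in control, 15 fell in AS and 2 did both. For 22 of them the AS mean lay above control with saline, with Slc2a1 as the exception, and for 0 of 23 after DEX. Of the 15 protein-coding genes with a higher interaction other than Rps27rt, 14 had responses of opposite sign, 6 fell in control, 13 rose in AS and 4 did both. All 15 had a lower mean in AS than in control with saline and a higher one after DEX. The 10 pseudogenes and Rps27rt followed another pattern, in which all 11 fell in control and 0 of them passed the test in AS.

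**Figure D1:**
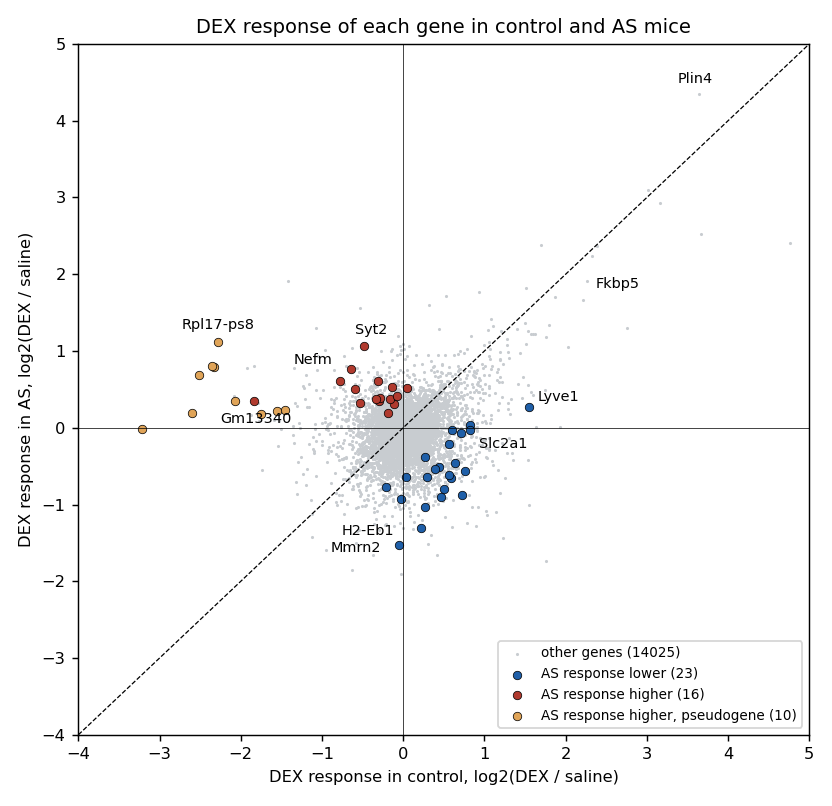
Each point is 1 of 14074 genes, with its log2 DEX response in control mice on the x axis and in AS mice on the y axis, and the dashed line marks equal responses. The 23 genes with a called lower interaction lie below the line, mostly to the right of 0 in control and under 0 in AS, the protein-coding genes with a higher one lie at the upper left, and the 10 pseudogenes lie far to the left, with AS responses from -0.01 (Rpl36-ps2) to 1.12 (Rpl17-ps8) that did not pass the test.

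Genes expressed by brain endothelium had lower DEX responses in AS than in control. Mmrn2 (ENSMUSG00000041445.9; mm10 chromosome 14, 34375465 to 34404287), an extracellular glycoprotein of endothelial cells, had 105, 107, 128 and 150.5 normalized counts in saline-treated and 81.0, 118, 139 and 141 in DEX-treated controls, in ascending order as for all values below. In AS it had 113, 151, 209 and 232 with saline and 39.5, 56.4, 64.3 and 80.1 with DEX. The control groups overlapped, whereas the AS mice with DEX all lay below the AS mice with saline and below every control. The interaction was -1.48 (SE 0.35, adjusted p = 0.0954), and the gene fell by 1.53 on the log2 scale in AS (adjusted p = 0.00034). Adgrl4, an adhesion receptor of endothelial cells, had 359, 391, 464 and 539 in controls with saline, 537, 558, 697 and 798 in controls with DEX, 391, 478, 523 and 592 in AS with saline and 251, 288, 333 and 443 in AS with DEX. Its DEX-treated groups did not overlap, and its interaction was -1.17 (SE 0.27, adjusted p = 0.0844). Ly6a, a surface protein of brain endothelium in this strain, had 268, 277, 309 and 391 with saline and 374, 375, 459 and 554 with DEX in controls and 312, 384, 479 and 503 with saline and 182, 186, 236 and 386 with DEX in AS. One AS mouse with DEX reached the control range, and the interaction was -1.30 (SE 0.31, adjusted p = 0.0954).

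Both parts of the adrenomedullin receptor had a lower response in AS. Calcrl, the receptor itself, had 89.1, 119, 126 and 139 in controls with saline and 129, 157, 174 and 182 with DEX, and 134, 138, 156 and 192 in AS with saline and 90.5, 102, 116 and 122 with DEX. It rose in control by 0.44 (adjusted p = 0.0902) and fell by 0.52 on the log2 scale in AS (adjusted p = 0.0346), with an interaction of -0.96 (SE 0.21, adjusted p = 0.0744). Ramp2, the accessory protein that makes Calcrl an adrenomedullin receptor, had 366, 440.1, 443 and 471 with saline and 595, 644, 727 and 876 with DEX in controls and 419.6, 518, 577 and 579 with saline and 429.5, 443, 511 and 617 with DEX in AS. It rose in control alone by the test, by 0.71 (adjusted p = 0.00118), while its AS groups overlapped with a response of -0.07 (adjusted p = 0.856), an interaction of -0.78 (SE 0.18, adjusted p = 0.0954).

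Of 5 transport genes with a lower response, 3 rose in control and did not pass the test in AS, and 2 fell in AS and did not pass it in control. Slc2a1 (ENSMUSG00000028645.11; mm10 chromosome 4, 119108711 to 119137983), which encodes the glucose transporter GLUT1 of brain endothelium, had 2459, 2518, 2674 and 3139.9 in controls with saline and 4266, 4497, 4745 and 5572 with DEX. AS mice had 2091, 2678, 2813 and 2972 with saline and 2280.2, 2494, 2605 and 2953 with DEX. The 4 control mice with DEX lay above the other 12 mice, whose ranges overlapped. The response was 0.82 in control (adjusted p = 0.000273) and -0.02 in AS (95% interval -0.29 to 0.24), an interaction of -0.85 (SE 0.18, adjusted p = 0.0744). Stra6, the receptor that takes up retinol from its plasma carrier, had 195, 221, 226 and 261 with saline and 333, 348, 371 and 494 with DEX in controls and 236, 237, 266 and 430.2 with saline and 174, 182, 198 and 215 with DEX in AS. It rose in control (adjusted p = 0.0351), where the groups did not overlap, and had an interaction of -1.32 (SE 0.29, adjusted p = 0.0785). Slc52a3, a riboflavin transporter, fell in AS from 55.2, 63.0, 95.3 and 104 to 29.8, 38.0, 47.9 and 49.5 and had 54.0, 54.0, 62.7 and 66.8 with saline and 66.7, 72.3, 84.8 and 109.7 with DEX in controls. Slc30a10, a manganese exporter, fell in AS from 513, 644, 673 and 697 to 340.1, 409.6, 432 and 435, while its control groups overlapped at 427 to 539 with saline and 434 to 590.3 with DEX. Slc44a5, of the choline transporter-like family, rose in control from 174, 205, 218 and 224 to 281, 312, 319 and 336 and had 205, 234, 253 and 255 with saline and 187, 244, 249.9 and 251 with DEX in AS. The interactions of these 3 carriers were -1.37, -0.67 and -0.63.

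**Figure D2:**
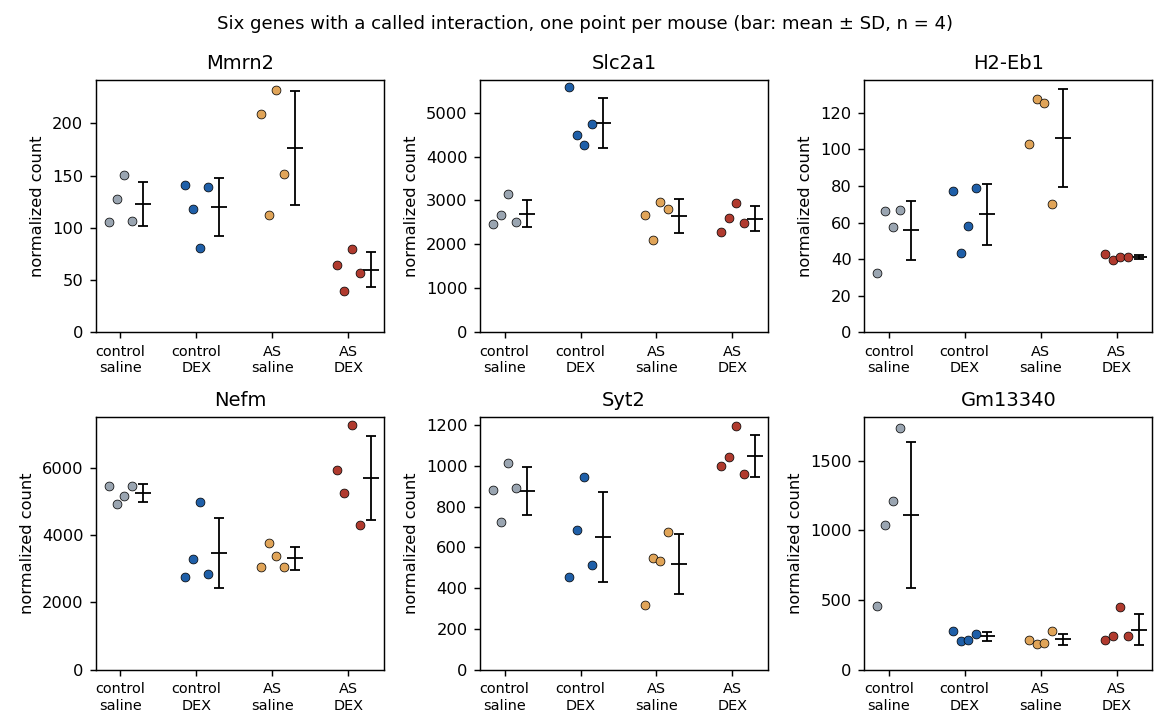
Normalized counts of 6 genes in each of 16 mice, grouped as control or AS with saline or DEX, with the group mean and SD beside the points. Slc2a1 is high in DEX-treated controls alone, Mmrn2 is lowest in DEX-treated AS mice, and H2-Eb1 is highest in saline-treated AS mice. Nefm and Syt2 are low in DEX-treated controls and saline-treated AS mice. Gm13340 is highest in saline-treated controls, of which the lowest (457.6) lies close to DEX-treated AS mouse 60 (453).

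Genes of the matrix, the cytoskeleton and the cell surface were also among those with a lower response. Lamb2, the beta 2 chain of laminins in basement membranes, had 966, 1046, 1184 and 1189 with saline and 1079.8, 1333, 1396 and 1601 with DEX in controls and fell from 1074, 1143, 1503 and 1682 to 761, 851, 865 and 951 in AS, where the DEX mice lay below the other 12. Vim, the intermediate filament of vascular and glial cells, had 983, 1053, 1062 and 1086 with saline and 1052, 1367, 1468 and 1679 with DEX in controls and 1069, 1372, 1438 and 1743 with saline and 805, 872, 1022 and 1149 with DEX in AS, with 1 AS mouse with DEX above the lowest AS mouse with saline. Tagln2, an actin-binding protein, fell in AS from 274, 288, 292 and 295 to 129, 144, 155 and 181 with no overlap and had 213, 223, 223 and 234 with saline and 173, 199.8, 206 and 323 with DEX in controls. Their interactions were -0.93, -0.93 and -0.90 (adjusted p = 0.0744, 0.0954 and 0.0954). Tgm2, a transglutaminase that cross-links proteins, rose in control from 293, 308, 375 and 458.3 to 445, 521, 566 and 697 and had 344, 352, 423 and 559.6 with saline and 251, 296, 300.1 and 363 with DEX in AS, an interaction of -1.09. Msln, a surface protein of mesothelial cells, fell in AS from 81.3, 88.7, 98.0 and 115 to 39.6, 46.1, 47.9 and 50.9 with no overlap, and its control groups overlapped at 39.9 to 80.3 and 53.6 to 86.2.

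The small heat shock proteins Hspb1 and Hspb8, chaperones that keep unfolded proteins from aggregating, rose in control and did not rise in AS. Hspb1 went from 93.1, 95.04, 99.6 and 122 to 123, 142, 148 and 219 in controls and from 109, 146, 149.5 and 167 to 69.9, 80.7, 102 and 109 in AS, where it fell (adjusted p = 0.0314), an interaction of -1.25 (SE 0.26, adjusted p = 0.0711). Hspb8 went from 262, 264, 273 and 316 to 427, 459, 495 and 605 in controls and had 361, 368, 429 and 451 with saline and 350.2, 384, 419 and 508 with DEX in AS, an interaction of -0.78 (SE 0.18, adjusted p = 0.0954). For Hspb8 the AS mice with saline already lay above all controls with saline. Of 19 measured members of a heat shock list that does not hold Hspb8, 1 was called lower (Hspb1), 7 were higher and 2 lower at an unadjusted p under 0.05, and the median was 0.17.

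Genes of macrophages and antigen presentation contributed a pair of calls. Lyve1 (ENSMUSG00000030787.4), a hyaluronan receptor of lymphatic vessels and of macrophages at the brain's borders, rose in control from 31.0, 31.7, 33.2 and 38.5 to 95.1, 95.3, 101 and 108, with no overlap, and had 48.97, 49.9, 57.9 and 63.3 with saline and 47.9, 58.6, 67.7 and 101 with DEX in AS, an interaction of -1.27 (SE 0.28, adjusted p = 0.0744). H2-Eb1, the beta chain of an MHC class II molecule, had 32.4, 57.7, 66.4 and 66.9 with saline and 43.4, 58.4, 77.0 and 79.0 with DEX in controls and fell in AS from 70.0, 103, 125 and 127 to 39.5, 41.3, 41.5 and 42.6, an interaction of -1.53 (SE 0.35, adjusted p = 0.0954). The 4 AS mice with saline lay above the 4 controls with saline, and those with DEX lay below the 4 controls with DEX. Ppic, cyclophilin C, had the lowest called interaction, -1.60 (SE 0.35, adjusted p = 0.0744), with 30.7, 35.1, 38.7 and 50.9 with saline and 59.6, 61.4, 62.7 and 73.1 with DEX in controls and 65.6, 74.3, 77.9 and 78.3 with saline and 29.8, 39.3, 46.1 and 47.1 with DEX in AS. The last 3 genes with a lower response were Plcg2, a phospholipase of immune receptor signalling, at -0.77, Etnk2, an ethanolamine kinase, at -0.65, and Tnfrsf19, a receptor of the tumour necrosis factor family, at -0.57. Tnfrsf19 fell in AS from 2095, 2360.3, 2589.7 and 2748 to 1266, 1364, 1477 and 1618, and its control groups overlapped at 1776 to 2132 and 1472 to 1956.

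Lists of marker genes placed these calls among related genes. At an unadjusted p under 0.05, which 7.43% of all genes passed in the lower direction, 28 of 31 endothelial markers measured were lower and 0 higher. Their median interaction was -0.95, beside 0.00 for all genes, and 4 were called. The median DEX response of the list was 0.19 in control and -0.72 in AS, where 19 members fell and 1 rose, while 2 rose and 0 fell in control. The members ranged from -1.68 for Vwf, the von Willebrand factor of clotting, to -0.01 for Cd34. Genes outside the naming rule in this and the next paragraphs, such as these, were chosen after their values were seen. In bulk tissue, fewer cells of a type and less RNA per cell cannot be told apart.

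The other vascular lists had medians in the same direction. Of 17 mural cell markers, which mark pericytes and smooth muscle, 14 were lower and 1 higher at an unadjusted p under 0.05, with a median of -0.60 and 0 called. The lowest members were the contractile genes Acta2 (-2.08), Tagln (-2.02) and Myh11 (-1.95), and Ppp1r14a (1.03) was the member that was higher. Rgs5, a pericyte regulator of G protein signalling, had 1986, 2322, 2936 and 3150.1 with saline and 2646, 3047, 3062 and 3992 with DEX in controls and 1707, 2624, 3273 and 3769 with saline and 1394, 1556, 1578 and 2171 with DEX in AS, an interaction of -1.03 (SE 0.34, adjusted p = 0.177). Of 22 genes of barrier transport and junctions 15 were lower and 0 higher with Slc2a1 called (median -0.46), of 25 matrix genes 15 and 1 with Lamb2 called (median -0.39), of 32 angiogenic ligands, receptors and Notch genes 14 and 0 (median -0.33), and of 31 TGF-beta and BMP genes 14 and 0 (median -0.38). Among the angiogenic genes, the receptors for VEGF and angiopoietins had values of -0.99 for Kdr, -0.85 for Flt1, -0.89 for Tek and -1.18 for Tie1. Each had an unadjusted p under 0.05, and each is also a member of the endothelial list counted above. The ligand Vegfa had -0.05 (unadjusted p = 0.648). The 2 angiogenic members with the highest mean counts, Plxnd1 and S1pr1, had -0.08 and -0.25 (adjusted p = 0.907 and 0.389). Those of the barrier list, Tfrc and Slc6a6, had -0.08 and -0.44 (adjusted p = 0.9 and 0.169). In the TGF-beta and BMP list they were Bmpr2 at 0.10 and Ski at -0.46 (adjusted p = 0.911 and 0.114).

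Markers of the brain surface had lower interactions as well. Of 11 leptomeningeal markers, 7 were lower and 0 higher at an unadjusted p under 0.05, with a median of -0.98, a median DEX response of 0.28 in control and -0.59 in AS, and 0 called. Ptgds, the prostaglandin D synthase of meningeal cells, had 21331, 22214, 28024 and 30431 in controls with saline, 28519, 35727, 36955 and 47898 in controls with DEX, 33605, 34570.1, 36710.2 and 43026 in AS with saline and 20544, 25103, 25875 and 37836 in AS with DEX. Of 7 border macrophage markers 5 were lower and 0 higher with Lyve1 called (median -0.98). The one choroid plexus marker measured of 7, Kcnj13, had 22.3, 35.7, 37.8 and 50.9 with saline and 66.7, 73.2, 83.6 and 91.5 with DEX in controls and 44.6, 55.5, 59.6 and 99.4 with saline and 41.3, 42.3, 42.6 and 86.4 with DEX in AS, an interaction of -1.42 (unadjusted p = 0.0215). The 5 blood genes measured had a median of -0.56, with 0 at an unadjusted p under 0.05. Summed over the leptomeningeal list, the normalized counts were 25426 to 35634 in controls with saline, 32948 to 54949.6 in controls with DEX, 38679.8 to 50059.7 in AS with saline and 24059.6 to 43573 in AS with DEX, and those of the blood list 1575 to 2687, 1625 to 4386, 1155 to 3140.0 and 1168 to 3599. The part of these tissues in the vascular interactions was not tested.

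Immune and astrocyte lists had medians below 0, and the oligodendrocyte list had the highest median of all. Of 23 microglia markers 5 were lower and 0 higher (median -0.27), of 6 MHC class II genes 4 and 0 with H2-Eb1 called (median -0.88), of 10 MHC class I and peptide loading genes 5 and 0 (median -0.29), of 17 interferon response genes 4 and 0 (median -0.38) and of 20 astrocyte markers 10 and 0 (median -0.26). Against this, 16 of 18 oligodendrocyte markers were higher and 0 lower at an unadjusted p under 0.05, which 6.08% of all genes passed in the higher direction, with a median of 0.64 and 0 called. The median DEX response of the oligodendrocyte list was -0.30 in control, where 6 members fell and 0 rose, and 0.38 in AS, where 6 rose and 0 fell. Oligodendrocyte precursor markers had a median of -0.08, with 0 of 9 higher and 1 lower.

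**Figure D3:**
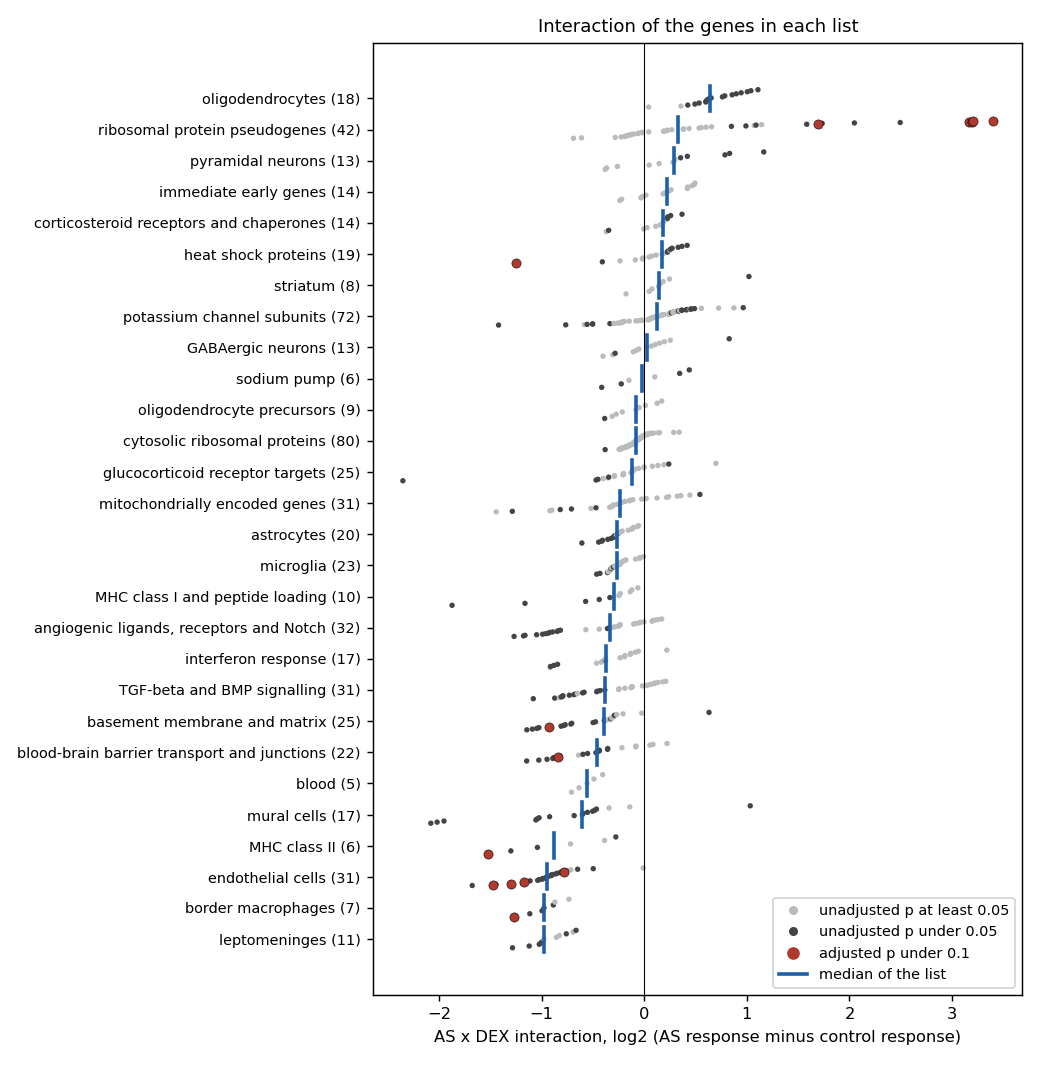
The interaction on the log2 scale (x axis) of each gene in 28 lists with at least 5 genes measured, with the number measured in parentheses, ordered by the list median (blue line). Leptomeningeal, border macrophage, endothelial and MHC class II genes lie lowest and oligodendrocyte genes highest, and the called pseudogenes reach above 3.

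**Figure D4:**
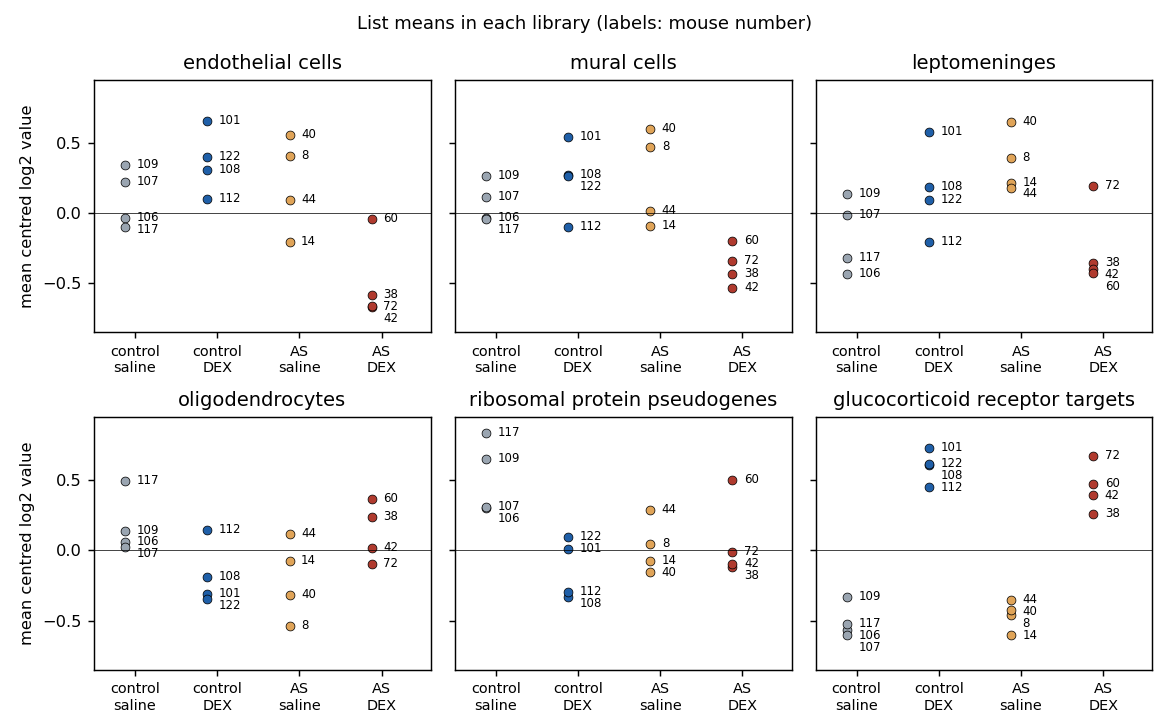
Mean centred log2 value of 6 lists (y axis) in each of 16 libraries, labelled by mouse number and grouped as control or AS with saline or DEX. The group means of the endothelial and mural lists are lowest in the DEX-treated AS mice, and the GR target list separates DEX from saline in both phenotypes. Among the DEX-treated controls, mouse 112 is lowest and mouse 101 highest in the endothelial and mural panels, and mouse 112 is highest in the oligodendrocyte panel.

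Scores per library, the mean over a list after each gene is centred on the 24 libraries, showed how far single mice carried these medians. The endothelial score ran over -0.10 to 0.34 in controls with saline, 0.10 to 0.66 in controls with DEX, -0.21 to 0.56 in AS with saline and -0.67 to -0.04 in AS with DEX. AS mice with DEX lay below the controls with DEX without overlap, while the saline groups overlapped, and AS mouse 60 had the highest score of its group. The oligodendrocyte score ran over 0.03 to 0.50, -0.35 to 0.14, -0.54 to 0.12 and -0.10 to 0.36 in the same order, and its groups overlapped within each phenotype. The leptomeningeal score ran over -0.44 to 0.14, -0.21 to 0.58, 0.18 to 0.65 and -0.43 to 0.19. Among the controls with DEX, mouse 101 had the highest and mouse 112 the lowest endothelial, mural and leptomeningeal scores, and mouse 112 the highest oligodendrocyte score.

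The neurofilament genes Nefm, Nefh and Ina were called with a higher DEX response in AS. Nefm (ENSMUSG00000022054.11; mm10 chromosome 14, 68082590 to 68124846), the medium neurofilament chain that fills large axons, had 4919.6, 5153, 5448 and 5460.2 normalized counts in controls with saline and 2753, 2844, 3274 and 4990.3 with DEX. AS mice had 3041, 3057, 3362 and 3771 with saline and 4298, 5248, 5917 and 7256 with DEX. Controls with saline and AS with DEX were high, and controls with DEX and AS with saline were low except control mouse 112, the highest of its group. The interaction was 1.40 (SE 0.27, adjusted p = 0.063), where the gene fell in control (log2 response -0.64, adjusted p = 0.0613) and rose in AS (0.76, adjusted p = 0.0182). Nefh, the heavy chain, had 1239, 1366, 1385 and 1646 with saline and 748, 859, 917 and 1274 with DEX in controls and 830.2, 832, 1089 and 1354 with saline and 1169.9, 1318, 1632 and 1658 with DEX in AS, an interaction of 1.10 (SE 0.24, adjusted p = 0.0744). Ina, alpha-internexin, which assembles with them, had 5404, 5629, 5929.8 and 6031 with saline and 4547, 4899, 5553 and 6029.6 with DEX in controls and rose in AS from 4043, 4265, 4928 and 5601 to 6135, 6292, 6981 and 7624 with no overlap, an interaction of 0.66 (SE 0.14, adjusted p = 0.0711).

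Syt2, Scn4b, Chgb and Lynx1, genes of synapses and neuronal excitability, were also called higher. Syt2 (ENSMUSG00000026452.15; mm10 chromosome 1, 134646677 to 134762593), the calcium sensor of fast synaptic release, had 725, 884, 891 and 1014 in controls with saline and 457, 512, 686 and 945 with DEX, and 316, 533, 550.0 and 673 in AS with saline and 959, 999, 1041 and 1195 with DEX. The AS groups did not overlap and the control groups did, and the interaction was 1.54 (SE 0.34, adjusted p = 0.0785), the highest of a gene that is neither a pseudogene nor Rps27rt. Scn4b, a sodium channel subunit that supports rapid firing, had 1645, 1737, 1853 and 1895 with saline and 738, 802, 1112 and 1749.7 with DEX in controls and 929, 1035, 1118 and 1530.4 with saline and 1362, 1759.6, 1915 and 1977 with DEX in AS, with both pairs of groups overlapping and an interaction of 1.40 (SE 0.33, adjusted p = 0.0954). Pvalb, the parvalbumin of fast-spiking interneurons, had an interaction of 0.83 (unadjusted p = 0.00772) that was not called. That was the highest of 13 GABAergic markers, of which 7 lay above and 6 below 0 (median 0.02). Chgb, a protein of dense-core granules, rose in AS from 10374, 10679.8, 11277 and 11359 to 12759, 13191, 13928 and 14051 and had 11764, 11885, 11888 and 12803 with saline and 10506, 10678, 11212 and 12281 with DEX in controls, an interaction of 0.42. Lynx1, which damps nicotinic receptors, rose in AS from 6269, 6286, 6905 and 7301 to 7944, 8575, 9229 and 9243, with 8454, 8761, 9554 and 10199 with saline and 6434, 7024, 7771 and 9184 with DEX in controls and an interaction of 0.68.

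The remaining 8 genes with a higher response ranged from 0.38 to 0.92. Astn2, an astrotactin of neuronal migration, rose in AS from 641, 644, 795 and 873 to 1004, 1049.9, 1139 and 1280.1 and had 1019, 1049, 1092 and 1235 with saline and 669, 809, 936 and 1194 with DEX in controls, an interaction of 0.92 (SE 0.19, adjusted p = 0.0711). Plekhh1 fell in control from 353, 359, 415 and 426 to 246, 252, 256 and 325 and had 239.7, 261, 296 and 300.4 with saline and 313, 316, 336 and 416 with DEX in AS, an interaction of 0.86 (SE 0.18, adjusted p = 0.0744). Rcan2, a regulator of calcineurin, rose in AS from 3749, 3869, 4222 and 4320.4 to 5546, 5575, 5835 and 6232, while its control groups overlapped at 4546 to 4959 and 4276 to 5558. The other 5 were Gpr62, an orphan receptor, at 0.71, Mybpc1, a myosin-binding protein, at 0.66, Bod1l, which protects replication forks, at 0.54, Plcb4, a phospholipase downstream of G protein-coupled receptors, at 0.48, and Smc1a, a subunit of cohesin, at 0.38. Smc1a had the smallest difference called, with 2317, 2470.1, 2569 and 2588 with saline and 1998, 2199, 2220.2 and 2337 with DEX in controls and 2139, 2320.0, 2329 and 2345 with saline and 2341, 2655, 2738 and 2749.7 with DEX in AS.

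Lists of neuronal markers had medians above 0, the GABAergic one not in every setting. Of 13 pyramidal neuron markers 5 were higher and 0 lower at an unadjusted p under 0.05 (median 0.29), among them the deep-layer genes Fezf2 (1.16) and Bcl11b (0.79). The list ran from -0.38 to 1.16, with 10 members above and 3 below 0. Its 2 members with the highest mean counts, Camk2a and Slc17a7, had -0.37 and 0.05 (adjusted p = 0.421 and 0.893). Of 13 GABAergic markers 1 was higher and 1 lower (median 0.02), and of 8 striatal markers 1 was higher and 0 lower (median 0.15). Over all genes, 6.08% were higher and 7.43% lower at this threshold, beside 7.69% each way for the GABAergic list. Of 72 potassium channel subunits 11 were higher and 6 lower (median 0.13). Of 6 sodium pump genes 2 were higher and 2 lower (median -0.02), and of 14 immediate early genes 0 and 0 (median 0.22). In these 6 lists, 0 members were called in the interaction.

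The largest called interactions were those of pseudogenes, most of them processed copies of other genes. Rpl34-ps1 (ENSMUSG00000068396.9; mm10 chromosome 6, 71124610 to 71124963) had 31.0, 35.7, 40.7 and 51.7 in controls with saline, 4.82, 5.96, 8.13 and 9.14 in controls with DEX, 6.12, 6.13, 8.198 and 8.27 in AS with saline and 9.21, 12.7, 13.1 and 19.8 in AS with DEX. The controls with saline lay above the other 12 mice, and the interaction was 3.17 (SE 0.43, adjusted p = 0.00246). Gm8129 had 75.0, 78.3, 97.3 and 119.7 with saline and 23.8, 26.1, 26.5 and 29.04 with DEX in controls and 23.6, 25.2, 26.1 and 42.9 with saline and 21.0, 32.2, 34.1 and 48.7 with DEX in AS, an interaction of 1.94 (SE 0.31, adjusted p = 0.012). Gm13340 and Gm13339, neighbouring unprocessed pseudogenes on chromosome 2 (mm10, 22588103 to 22589647 and 22590024 to 22590533), had interactions of 2.42 (SE 0.38, adjusted p = 0.012) and 3.12 (SE 0.60, adjusted p = 0.063). Gm13340 had 457.6, 1037, 1212 and 1736 in controls with saline and 204 to 278, 188 to 278 and 212 to 453 in the other groups. For 10 of the 11 genes the saline-treated controls lay above the other 12 mice, with Rpl17-ps8 as the exception at 16.2, 29.5, 43.0 and 82.2 in those controls and 6.56 to 19.0 in AS with DEX. All 11 differed between AS and control with saline (22 genes, 0.156%, did). The 11 genes were chosen by a contrast that holds the saline-treated controls, so both counts describe them and test nothing. The share of all genes with saline-treated controls above the other 12 mice was not counted.

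Reads from a processed copy can belong to its parent gene, and the counting could split them, so these values are uncertain. The fitted interactions of the parent genes of the 5 called ribosomal protein pseudogenes were close to 0. Parents of Rps27rt and of the called Gm pseudogenes are not given. Rpl34 had an interaction of -0.01 (95% interval -0.43 to 0.41), Rpl17 of -0.03, Rpl19 of -0.10, Rpl36 of -0.02 and Rpl35a of -0.07, with unadjusted p of 0.95, 0.852, 0.537, 0.933 and 0.712. Over 80 cytosolic ribosomal protein genes the median was -0.08, with 0 higher and 1 lower at an unadjusted p under 0.05. Of the 42 ribosomal protein pseudogenes measured, 12 were higher and 0 lower, 5 were called, and the median was 0.32. In controls with saline these 42 summed to 1983 to 2740 normalized counts, beside 248877 to 308310 for the 80 ribosomal protein genes. Reads moved between copy and parent would hardly shift a parent, so the parent values cannot show splitting, which was not tested. Rpl36-ps2 had 10.8, 14.7, 17.2 and 35.2 in controls with saline and 0, 0, 2.32 and 3.92 in controls with DEX, so its fitted value of 3.21 rests on the pseudocount of 1.

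Known GR targets responded in both phenotypes, and 0 of the 25 listed were called in the interaction. Over 25 targets the median DEX response was 0.67 in control, where 21 rose and 0 fell, and 0.67 in AS, where 20 rose and 0 fell. The median interaction was -0.12, with 1 member higher (4%) and 4 lower (16%) at an unadjusted p under 0.05 and 0 called. Of all genes, 6.08% were higher and 7.43% lower at that threshold. Fkbp5, the co-chaperone that GR induces to limit its own activity, had an interaction of -0.35 (95% interval -0.66 to -0.04, unadjusted p = 0.0293, adjusted p = 0.301). Tsc22d3, an anti-inflammatory target, had 0.08 (-0.19 to 0.35), Sgk1, a kinase of ion transport, 0.13 (-0.17 to 0.43), and Nr3c1, the receptor gene, 0.22 (-0.08 to 0.51). The lowest member was Lcn2, an acute-phase protein of vessels and glia, which rose in both phenotypes, from 0, 1.17, 1.23 and 6.79 to 36.9, 75.5, 80.7 and 84.9 in control and from 0.745, 1.75, 3.54 and 6.13 to 8.53, 16.3, 18.2 and 38.0 in AS, an interaction of -2.35 (adjusted p = 0.188). Of 14 genes of receptors and chaperones, 4 were higher (28.6%) and 1 lower (7.14%) at an unadjusted p under 0.05, with 0 called. Hsp90ab1 (0.23) and Hspa8 (0.23) were among the higher ones.

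The PS mice shared the control libraries with AS, so both interactions contain the same control response, and their values are given side by side without a measure of likeness. The PS interaction called 0 genes in limma, with 1404 (9.98%) at an unadjusted p under 0.05, 0 genes by edgeR and 23 by DESeq2. The AS interaction of Mmrn2 was -1.48 and that of PS -0.88, those of Slc2a1 were -0.85 and -0.38, those of Nefm 1.40 and 0.89, those of Syt2 1.54 and 1.08, and those of Rpl34-ps1 3.17 and 1.84. For other called genes the PS value was close to the AS value or past it. These were Ppic with -1.60 in AS and -1.54 in PS, Mybpc1 with 0.66 and 0.71, Rpl35a-ps2 with 1.69 and 1.73, Gm8730 with 1.77 and 1.96 and Rpl36-ps2 with 3.21 and 3.34. The test of the difference, the AS minus the PS response, uses no control library in its contrast. It called 0 genes, with 344 at an unadjusted p under 0.05 (2.44%), and edgeR and DESeq2 also called 0. For Tagln2 the difference was -0.62 (unadjusted p = 0.00759), for Rcan2 0.31 (0.00737), for Slc2a1 -0.47 (0.0183) and for Mmrn2 -0.60 (95% interval -1.32 to 0.12). The endothelial median was -0.95 for AS, -0.55 for PS and -0.41 for AS minus PS. The AS and PS medians were 0.64 and 0.43 for oligodendrocytes, -0.98 and -0.91 for leptomeninges, -0.88 and -0.93 for MHC class II, -0.27 and -0.26 for microglia, -0.26 and -0.29 for astrocytes and -0.56 and -1.20 for blood. No gene was therefore shown to respond to DEX differently in AS than in PS.

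Single libraries decided how many genes passed. Leaving out one library at a time gave 4 to 686 calls. The count was 664 without control mouse 112 and 686 without AS mouse 44, and in both cases all 49 genes remained called. It was 221 without DEX-treated AS mouse 60, 118 without DEX-treated AS mouse 72, 157 without saline-treated AS mouse 14, and 158 and 172 without DEX-treated PS mice 56 and 34. It was 4 without saline-treated control mouse 117, saline-treated AS mouse 8, saline-treated AS mouse 40 or DEX-treated AS mouse 42, and 6 to 8 without DEX-treated control mice 101, 108 or 122, saline-treated control mouse 106 or DEX-treated AS mouse 38. In these 9 fits 0 genes were called lower. It was 10 without control mouse 107, 24 without control mouse 109 and 21 without PS mouse 6. The 4 genes called in every setting in which they were tested were Gm13340, Gm8129, Rpl17-ps8 and Rpl34-ps1. The 38 genes that were neither pseudogenes nor Rps27rt were called in 13 to 26 of the 36 settings, with Nefm the most often called, and all 49 kept the sign of their interaction in every setting. With log2 library size as a covariate, 7 genes were called, 6 of them pseudogenes and the other Nefm, and 0 were lower, while the interaction of Mmrn2 was -1.45 and that of Slc2a1 -0.82.

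**Figure D5:**
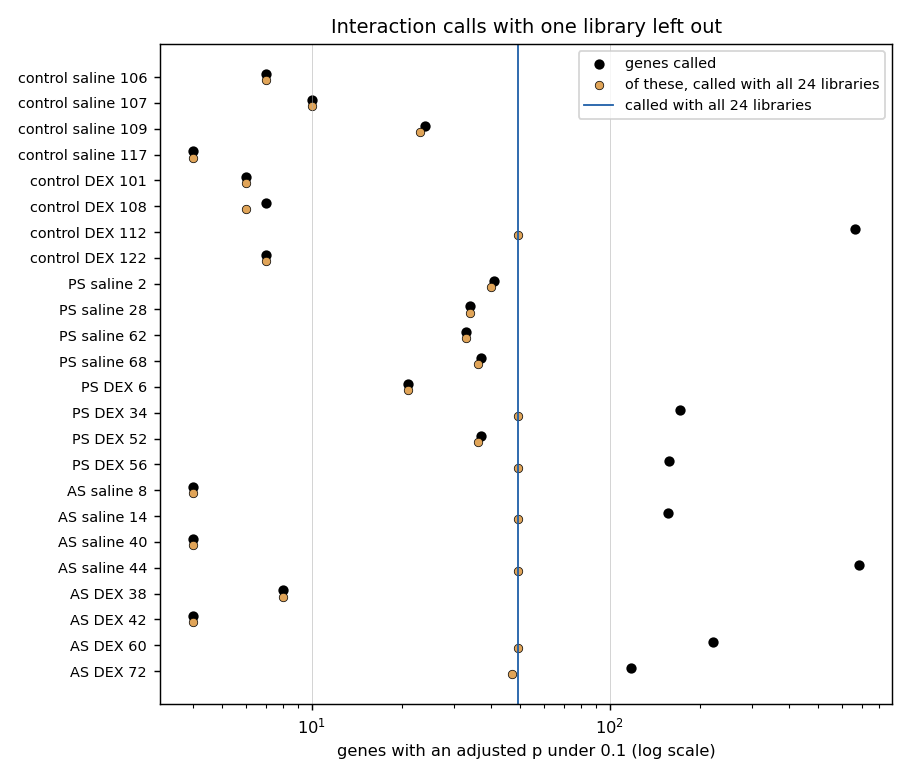
Genes called in the interaction at an adjusted p under 0.1 (x axis, log scale) with each of 24 libraries left out (rows), and how many of them were among the 49 called with all libraries. The count ranges from 4 to 686 around the 49 of the full fit, and it is highest without AS saline mouse 44 and control DEX mouse 112.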

How the data were processed

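PFC RNA-seq of 24 male C57BL/6 mice (control, PS and AS, with saline or DEX, n = 4 per group) was used. Libraries came from poly(A) RNA and kept the strand. Trimming (fastp 0.20.1), alignment to mm10 (HISAT2 2.2.1), counting over the GENCODE vM22 annotation (featureCounts, Subread 2.0) and normalization (DESeq2 1.36.0) were done by the authors. The deposited signal values are therefore read counts scaled by a size factor of each library. The authors' tables also hold fold changes and p-values of their own comparisons, which were not used. In each library 100% of values were whole multiples of 1 read within 0.01 read, so reads were recovered for depth and count models.

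The plan took the deposited values as normalized, so the main model was limma 3.58.1 (eBayes with a mean-variance trend, R 4.3.3) in place of a count model. It was fitted to log2(normalized count + 1) of all 14074 genes and 24 libraries, with one mean per group. Count models on the recovered reads were possible and were run as alternatives. Log2 values understate changes of low genes. A gene was called where its adjusted p (Benjamini-Hochberg, over all genes) lay under 0.1. Each of 36 replicate pairs differed beyond counting error (lowest chi-square per gene 5.74). SDs and n refer to mice.

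Named genes were the called genes that are no ribosomal protein pseudogene with the 12 highest and 12 lowest interactions, 3 ribosomal protein pseudogenes, in each of 29 lists the called members and, where fewer than 2 were called, the 2 with the highest mean counts, and Fkbp5, Tsc22d3, Sgk1 and Nr3c1. Remaining called genes and some list members were added after their values were seen. The genes, lists and tests were chosen with earlier results of these data known. The fits were tested on simulated counts. Alternatives were a pseudocount of 8, genes with a mean of at least 100 or with at least 10 reads in each library, quantile and TMM scaling, only the groups compared, library size as a covariate, array weights, edgeR 4.0.16 and DESeq2 1.42.0 on recovered reads, edgeR on thinned reads, each library left out and, chosen after seeing the data, only protein-coding genes. A read-level reassignment between copies was not possible. Some list members are not reported here.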

Additional observations from a re-analysis of the deposited data

Results flagged for a closer look

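The DEX response differed between AS and control mice in 49 genes by the test of the interaction, whose log2 values (AS response minus control response) follow. The lower ones were Ppic -1.60, H2-Eb1 -1.53, Mmrn2 -1.48, Slc52a3 -1.37, Stra6 -1.32, Ly6a -1.30, Msln -1.30, Lyve1 -1.27, Hspb1 -1.25, Adgrl4 -1.17, Tgm2 -1.09, Calcrl -0.96, Vim -0.93, Lamb2 -0.93, Tagln2 -0.90, Slc2a1 -0.85, Hspb8 -0.78, Ramp2 -0.78, Plcg2 -0.77, Slc30a10 -0.67, Etnk2 -0.65, Slc44a5 -0.63 and Tnfrsf19 -0.57. The higher ones of genes that are no copies of ribosomal protein genes or other pseudogenes were Smc1a 0.38, Chgb 0.42, Rcan2 0.48, Plcb4 0.48, Bod1l 0.54, Mybpc1 0.66, Ina 0.66, Lynx1 0.68, Gpr62 0.71, Plekhh1 0.86, Astn2 0.92, Nefh 1.10, Scn4b 1.40, Nefm 1.40 and Syt2 1.54. Those of pseudogenes and Rps27rt were Rpl35a-ps2 1.69, Gm8730 1.77, Gm8129 1.94, Rps27rt 2.19, Gm13340 2.42, Gm11942 2.79, Gm13339 3.12, Rpl34-ps1 3.17, Rpl19-ps7 3.20, Rpl36-ps2 3.21 and Rpl17-ps8 3.40 (Rpl36-ps2 with listed values of 0 in a pair of DEX-treated controls).

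Dixon's test flagged a single mouse as far from the other 3 in 8 of 196 groups of 4 values of the called genes. That share is no higher than the 1 in 20 or so that chance flags. In normalized counts, these were Stra6 at 430.2 in mouse 40 of the saline-treated AS mice, against 236 to 266 in the other 3, Slc44a5 at 187 in mouse 60 of the DEX-treated AS mice, against 244 to 251 in the other 3, Smc1a at 2139 in mouse 44 of the saline-treated AS mice, against 2320.0 to 2345 in the other 3, Chgb at 12803 in mouse 106 of the saline-treated controls, against 11764 to 11888 in the other 3, Plekhh1 at 325 in mouse 112 of the DEX-treated controls, against 246 to 256 in the other 3, Gm8129 at 42.9 in mouse 44 of the saline-treated AS mice, against 23.6 to 26.1 in the other 3, Gm13340 at 453 in mouse 60 of the DEX-treated AS mice, against 212 to 242 in the other 3, and Rpl17-ps8 at 12.8 in mouse 122 of the DEX-treated controls, against 4.77 to 6.02 in the other 3.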

How the results depend on the processing

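No paired analysis was possible because mouse numbers do not recur between groups. The 49 calls of the AS interaction became 1 (Gm13340) among genes whose mean normalized count reached 100, 31 with quantile normalization, 82 with only the groups compared, 7 with library size as a covariate, 924 with array weights, 77 with edgeR, 439 with DESeq2 and 22 among protein-coding genes only, and 4 to 686 with one library left out. The 913 calls of DEX in control became 2093 with array weights and 611 (without DEX-treated control mouse 101) to 1032 with one library left out. The 1234 calls of DEX in AS became 753 with only the groups compared, 2227 with array weights and 673 (without AS mouse 8) to 1985 (without AS mouse 44). The 22 calls between AS and control with saline became 5 with the mean filter, 9 with at least 10 reads in each library, 862 with array weights, 99 with DESeq2, 3 among protein-coding genes and 12 (without control mouse 109) to 49 (without control mouse 101). After DEX the 122 calls became 0 with library size as a covariate (937 at an unadjusted p under 0.05), 277 with array weights, 417 with DESeq2 and 3 (without control mouse 101) to 403 (without control mouse 112). The PS interaction, 0 in limma, gave 9 with a pseudocount of 8, 4 with quantile normalization, 3 with TMM scaling, 1 with only the groups compared, 122 with array weights, 23 with DESeq2 and 0 to 3 with one library left out. AS minus PS gave 0 calls in every fit. No interaction that was called changed sign. Medians of 25 of the 29 lists kept their sign in every setting, the exceptions being GABAergic neurons, the sodium pump, cytosolic ribosomal proteins and ribosomal protein pseudogenes, whose median was -0.01 with the mean filter. The endothelial median ranged from -1.12 to -0.82 and the oligodendrocyte median from 0.56 to 0.74. The causes of these changes were not tested. At this depth Rpl36-ps2 had 0 reads in a pair of DEX-treated controls, so its value depends on the pseudocount.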

Other observations

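Genes that are not among the 49 calls but lie in the lists add some values of the same kind. In the MHC class I list, H2-Q6 and H2-Q4, near-identical members of one family whose reads the counting could split, had the lowest interactions, -1.87 and -1.16 (adjusted p = 0.169 and 0.12). H2-Q6 had normalized counts of 36.4, 44.1, 88.0 and 89.8 with saline and 42.9, 58.8, 62.7 and 73.5 with DEX in controls and of 34.1, 41.7, 62.6 and 106 with saline and 10.3, 10.4, 12.5 and 28.9 with DEX in AS.

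Mitochondrially encoded transcripts took 4.38% to 6.93% of the reads of the 16 libraries. Over 31 such genes the median interaction was -0.23, with 1 higher and 4 lower at an unadjusted p under 0.05 and 0 called.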
